A study of Mus musculus with 6 samples.

Results

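The unfolded protein response and the integrated stress response were followed through 38 genes of 37187 in the deposited tables, taken by symbol in the normalized-count and FPKM tables and by Ensembl ID in the raw-count table. They comprise 7 sensors and transcription factors, 2 subunits of the eIF2alpha phosphatase, 11 ATF4 targets, 14 chaperones and folding factors of the endoplasmic reticulum (ER) and 4 genes of ER degradation. The RNA came from regulatory T cells (Tregs), CD4 T cells that depend on Foxp3 and hold other immune cells in check. The KO group held 3 libraries (replicates 4 to 6) from il33-/- mice on the C57BL6 background and the WT group 3 libraries (replicates 1 to 3) from C57BL6 mice. All mice carried B16.F10 melanoma, a transplantable tumour line, from 300000 cells given under the skin, and CD4+CD25+GITR+ cells were sorted from the draining lymph nodes on day 14. The labels state neither the deleted part of Il33 nor whether a library came from 1 animal or a pool, so a p-value here measures spread among libraries, which may be technical.

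Proteins that enter the ER are folded there by chaperones, and unfolded protein is sensed by IRE1 (Ern1), PERK (Eif2ak3) and ATF6. IRE1 splices the message of Xbp1, ATF6 is cut to release a transcription factor, and both raise chaperone and degradation genes. PERK belongs to a family of kinases that phosphorylate eIF2alpha, which lowers translation in general but favours that of Atf4, whose product drives amino acid supply and stress genes. T cell activation raises the load of secreted and surface proteins, and the same kinases respond to amino acid shortage in T cells.

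Library totals ran from 20877014 to 21073195 counts in KO and from 18071928 to 21165063 counts in WT. Treg genes were present throughout, with Foxp3 at 789.7 to 856.9 CPM in KO and 719.2 to 802.9 CPM in WT, although the sort did not use Foxp3 (CPM, counts scaled to the library total with TMM factors). Summed over 8 Treg and T cell markers, KO libraries held 4918 to 5135 CPM and WT libraries 4127 to 4744 CPM, without overlap. Of the 8, 7 had positive log2 fold changes and 1 passed, Ctla4, at 0.53 (edgeR adjusted p = 0.00220). Transcripts of B cells were present too. Of their 18 markers 1 (Vpreb3) was called lower and 17 were not called. The 18 markers summed to 1359, 1686 and 1357 CPM in KO replicates 4, 5 and 6, against 3648, 2243 and 2998 CPM in WT replicates 1, 2 and 3, and all 18 had negative log2 fold changes. Without Cd72, which alone had 558.3 CPM in WT replicate 2, the sums were 1314, 1643 and 1316 CPM in KO and 3562, 1685 and 2924 CPM in WT, so that KO replicate 5 came close to WT replicate 2. Plasma cells are rich in ER chaperones, and of 8 tested plasma cell markers Sdc1 fell (log2 fold change -0.96, edgeR adjusted p = 0.00905) and none rose. The 10 listed markers summed to 241.5 to 297.96 CPM in KO and 249.1 to 271.7 CPM in WT, most of it Fam46c and Prdm1. Without these, a choice made after their values were seen, the sums were 17.7, 24.6 and 18.99 CPM in KO and 62.7, 26.1 and 40.5 CPM in WT, without overlap. Mzb1 averaged 3.40 CPM in KO and 11.8 CPM in WT and Ighg2b 4.52 CPM in KO and 1.54 CPM in WT, and neither passed. Tnfrsf17 had at most 1 read in any library. The 10 myeloid and dendritic cell markers summed to 29.9 to 47.1 CPM in KO and 40.5 to 57.8 CPM in WT. The 8 NK and CD8 T cell markers summed to 46.3 to 59.1 CPM in KO and 61.2 to 68.5 CPM in WT. In bulk RNA, fewer cells of a type and less RNA per cell cannot be told apart, and the part of other cells' RNA in the results was not tested beyond the adjusted values given.

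Most of the stress response genes tested were not called different between KO and WT Tregs. Ppp1r15a, Atf4 and Dnajb9 rose in KO Tregs, while Atf6 and Syvn1 fell. Of the 36 genes tested 3 were called higher, 2 lower and 31 neither, by edgeR's quasi-likelihood test with adjusted p under 0.05. Over all 13626 genes tested, 3.68% were called higher and 2.83% lower (6.50% in either direction), against 13.9% of the 36 in either direction. The median log2 fold change of the 36 genes was 0.06, against 0.00 over all genes. At an unadjusted p under 0.05 by edgeR, 11 of the 36 were higher and 3 of the 36 lower. Of all 13626 genes 1504 (11.0%) were higher and 1472 (10.8%) lower. Levels in KO did not overlap those in WT for 9 of the 36 that were higher and 3 that were lower. Of all 13626 genes 1868 (13.7%) and 1721 (12.6%) did so. By both counts the share higher was larger among the 36 than among all genes, and the share lower was smaller. The 36 were chosen with earlier results of these data known. On leaving out each library in turn the number called higher ran from 1 to 3 and the number called lower from 0 to 2, while over all genes 1.71% to 4.47% were called higher and 0.918% to 5.26% lower. A fit adjusted for a B cell score, the mean log2 CPM of the 18 markers, called none of the 36, and 0.294% of all genes (0.183% higher and 0.110% lower). The score was 4.17 to 4.90 in KO and 5.30 to 6.74 in WT, without overlap.

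**Figure D1:**
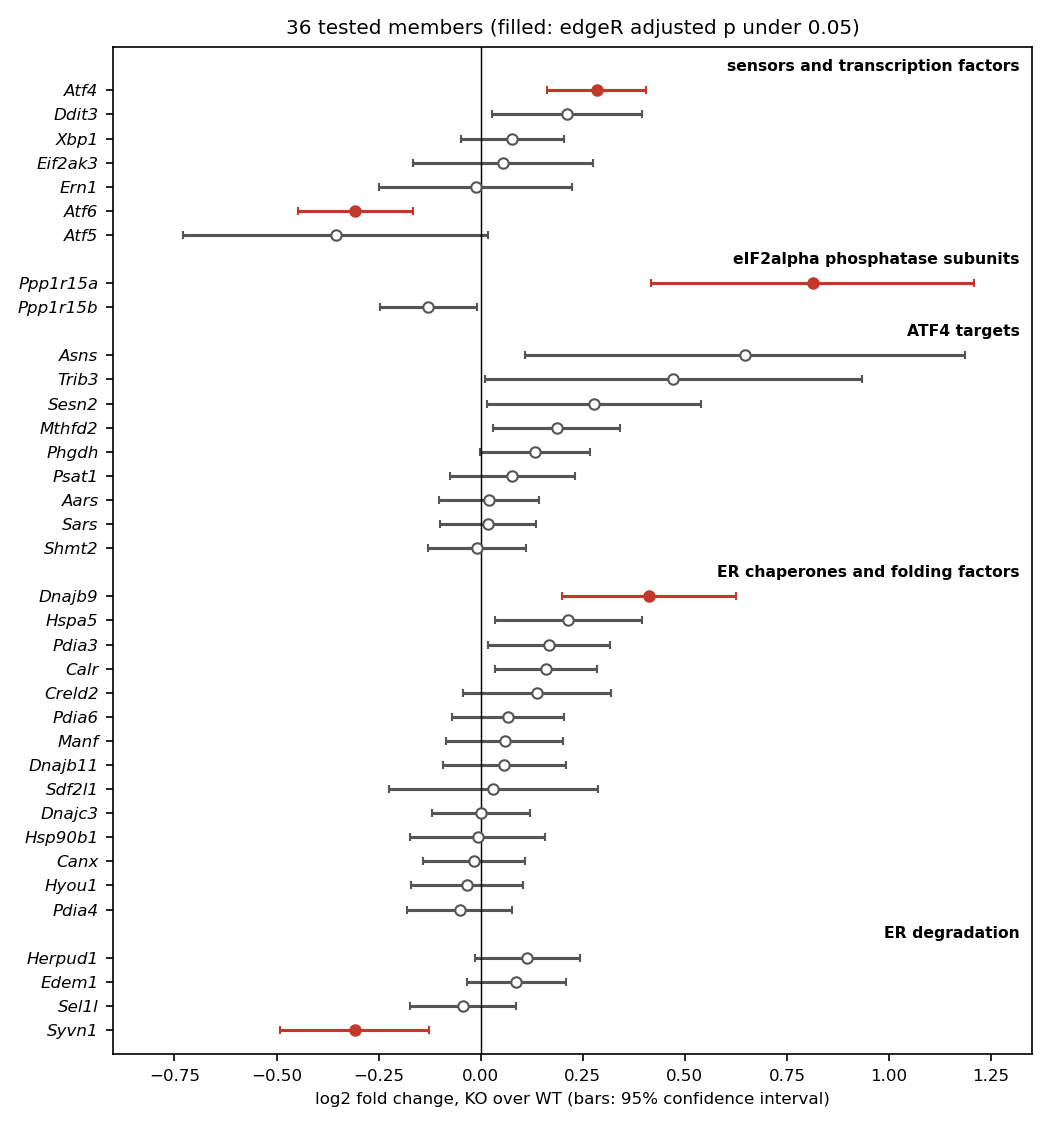
Log2 fold change of KO over WT for the 36 tested genes, grouped by role; points are edgeR estimates, bars 95% confidence intervals, and filled red points passed at an adjusted p under 0.05. The 3 filled points to the right of 0 are Ppp1r15a, Atf4 and Dnajb9, the 2 to the left are Atf6 and Syvn1, and most chaperones lie close to 0.

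By deposited FPKM, which corrects for gene length, the highest mean level over the 6 libraries was that of Hspa5 at 223.9 FPKM. It was followed by Ppp1r15a at 203.4, Calr at 200.4, Pdia3 at 191.1, Atf4 at 156.7 and Hsp90b1 at 117.5 FPKM. In KO Tregs Ppp1r15a was first, at 258.9 ± 7.53 FPKM, against 147.8 ± 30.4 FPKM in WT (SD, n = 3 each). Calr and Pdia3, next to each other in rank, differed from one another by less than their spread over libraries within each group. Calr was at 211.2 ± 10.7 FPKM in KO and 189.6 ± 10.2 FPKM in WT, and Pdia3 at 201.9 ± 15.3 FPKM in KO and 180.2 ± 13.1 FPKM in WT. Between KO and WT the libraries did not overlap for Calr and did for Pdia3. The sensors were low, with Eif2ak3 at 9.40, Atf6 at 6.54 and Ern1 at 2.46 FPKM on average. Chac1, a glutathione-degrading enzyme, and Vldlr, a lipoprotein receptor, were close to absent. Chac1 had 0, 1 and 1 counts in KO and 1, 0 and 0 in WT, and Vldlr had 1, 0 and 3 counts in KO and 0, 1 and 0 in WT. Both were too low to be tested.

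**Figure D2:**
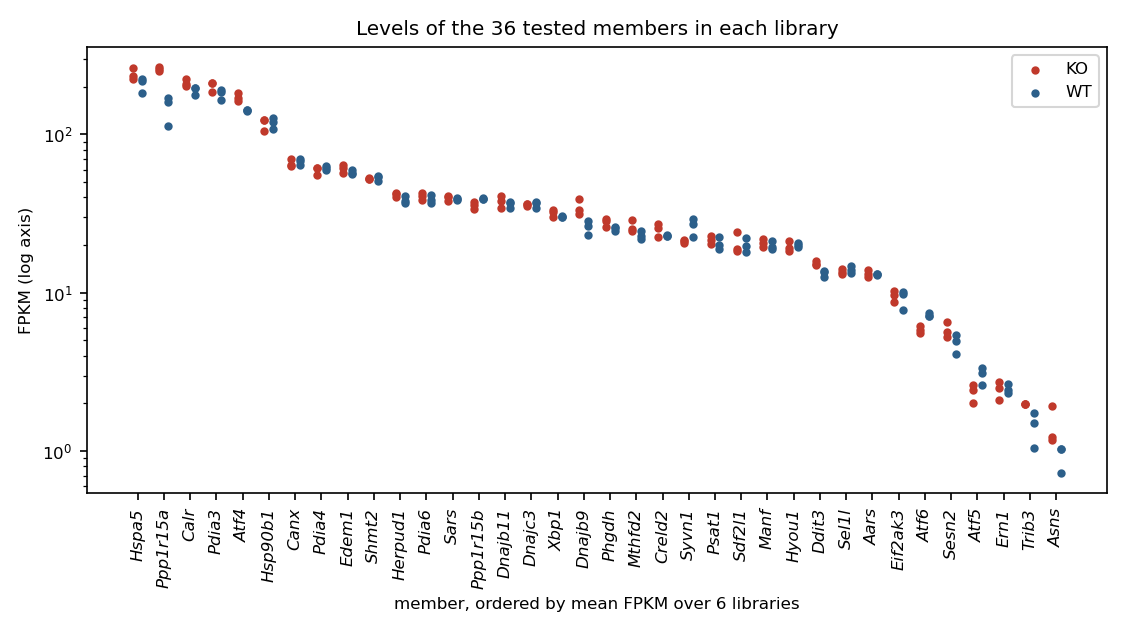
Deposited FPKM of the 36 tested genes in each library on a log axis, KO points left and WT points right for each gene, ordered by the mean over 6 libraries. Among the abundant genes all 3 KO libraries lie above all 3 WT libraries for Ppp1r15a, Hspa5, Calr and Atf4, while most genes overlap. Of these, Ppp1r15a has the largest difference, with means of 258.9 FPKM in KO and 147.8 FPKM in WT.

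Among the sensors and transcription factors, Atf4 rose and Atf6 fell, and the other 5 did not pass. Atf4 encodes the central transcription factor of the integrated stress response. It had 281.6, 294.95 and 318.0 CPM in KO replicates 4, 5 and 6, against 246.1, 241.8 and 246.7 CPM in WT replicates 1, 2 and 3. Every KO library lay above every WT library, and the WT libraries lay close together. The log2 fold change was 0.28, with SE 0.06 and edgeR adjusted p = 0.0101, a rise of 21.8%. It held without any 1 library except WT replicate 3, where the edgeR adjusted p was 0.0556. Adjusted for the B cell score, the log2 fold change was 0.26 and did not pass (edgeR adjusted p = 0.510).

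Atf6, the precursor of a membrane-bound transcription factor, moved the other way. It had 41.7, 46.2 and 43.7 CPM in KO, against 56.2, 53.2 and 53.2 CPM in WT, and the groups did not overlap. Its log2 fold change was -0.31, with SE 0.07 and edgeR adjusted p = 0.0151. Its call was lost when WT replicate 1, WT replicate 3 or KO replicate 6 was left out, where the adjusted p reached 0.0660. Under B cell adjustment the log2 fold change was -0.22 and did not pass (edgeR adjusted p = 0.649). RNA counts do not report the splicing of Xbp1 or the cleavage of ATF6.

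The remaining factors did not pass. Ddit3 encodes CHOP, a transcription factor induced through ATF4. It had 25.8, 26.3 and 27.4 CPM in KO, against 21.6, 23.3 and 23.7 CPM in WT, with a log2 fold change of 0.21, with SE 0.08 and edgeR adjusted p = 0.166. Its groups did not overlap, although the change missed the threshold. Mars, which overlaps Ddit3 on the opposite strand, had a log2 fold change of 0.05, and whether counting used strand is not stated. Xbp1 had a log2 fold change of 0.08 (95% confidence interval -0.05 to 0.20), Eif2ak3 0.06 (-0.17 to 0.28) and Ern1 -0.01 (-0.25 to 0.22). Atf5, a relative of Atf4, had -0.35, with SE 0.17 and edgeR adjusted p = 0.257. The Atf5 locus overlaps Il4i1 on the opposite strand, and Il4i1 averaged 13.6 ± 1.70 CPM in KO and 40.2 ± 20.8 CPM in WT (SD, n = 3 each). The part of Il4i1 reads in the Atf5 values was not tested.

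The inducible subunit of the eIF2alpha phosphatase had the largest log2 fold change of the 36 genes, and the constitutive subunit did not pass. Ppp1r15a encodes GADD34, which is induced by stress and directs the phosphatase to eIF2alpha so that translation resumes, and it is also known as an immediate early gene. It had 739.2, 768.4 and 787.7 CPM in KO, against 334.3, 502.0 and 470.8 CPM in WT. All KO libraries were higher than all WT libraries, and WT replicate 1 was the lowest. The log2 fold change was 0.81, with SE 0.16 and edgeR adjusted p = 0.0462, a 1.76-fold rise. It missed the threshold without WT replicate 3 and without any 1 of the KO libraries, where the adjusted p reached 0.166, while its log2 fold change stayed between 0.65 and 0.93 over the 6 libraries left out. Under B cell adjustment it was 0.40 with an edgeR adjusted p of 0.580, and 0.46 with an adjusted p of 0.414 when Cd72 was left out of the score. Without WT replicates 1 and 3 it was 0.61. That setting was chosen after seeing the data and leaves 1 WT library, whose spread is taken from KO, so no p-value is given. Tulp2, which overlaps Ppp1r15a on the opposite strand, averaged 15.6 ± 1.54 CPM in KO and 15.4 ± 1.18 CPM in WT.

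Ppp1r15b encodes CReP, the constitutive subunit of the same phosphatase. It had 202.5, 211.4 and 191.3 CPM in KO, against 219.4, 221.4 and 220.4 CPM in WT, with a log2 fold change of -0.13, with SE 0.05 and edgeR adjusted p = 0.190. The KO libraries were all lower than the WT libraries, without passing. By FPKM the ratio of Ppp1r15a to Ppp1r15b was 6.96, 6.92 and 7.84 in KO replicates 4, 5 and 6, against 2.90, 4.32 and 4.07 in WT replicates 1, 2 and 3.

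**Figure D3:**
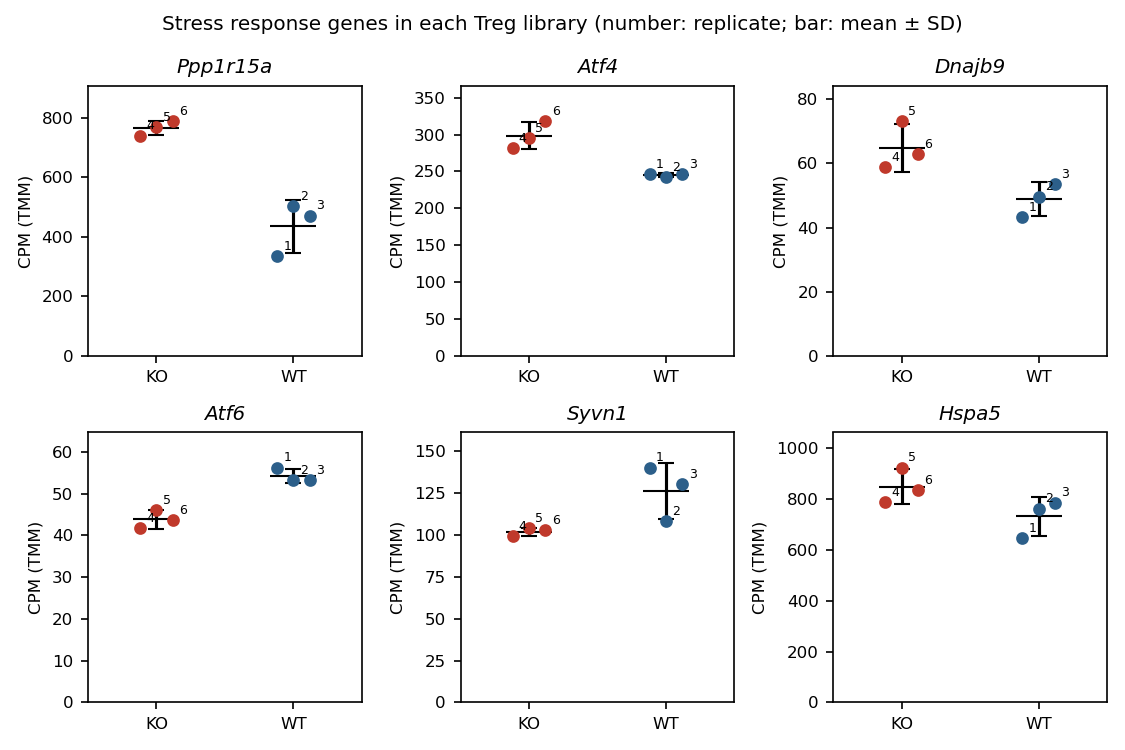
CPM of the 5 called genes and of Hspa5 in each library (points, numbered by replicate) with the group mean and SD (n = 3 each), KO left and WT right. All KO points lie above all WT points for Ppp1r15a, Atf4, Dnajb9 and Hspa5, and below them for Atf6 and Syvn1, but Hspa5 did not pass the test.

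The promoters of the 2 genes at the centre of the ATF4 branch are shown because they rose together. Both sequences, from RefSeq, are the 250 bases before the gene's start on GRCm38.p6. The Ppp1r15a sequence is chr7:45526269-45526518 on the minus strand, and the Atf4 sequence is chr15:80254934-80255183 on the plus strand. Capitals mark a match to 1 of 5 motifs searched on both strands, and the only match here is a cAMP response element (CRE, TGACGTCA) at bases -12 to -5 of Ppp1r15a.
Ppp1r15a: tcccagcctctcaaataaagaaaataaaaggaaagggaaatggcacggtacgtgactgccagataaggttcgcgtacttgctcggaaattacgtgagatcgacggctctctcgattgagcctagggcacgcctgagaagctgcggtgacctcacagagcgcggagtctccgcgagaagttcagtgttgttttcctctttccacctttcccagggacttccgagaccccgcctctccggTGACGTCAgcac
Atf4: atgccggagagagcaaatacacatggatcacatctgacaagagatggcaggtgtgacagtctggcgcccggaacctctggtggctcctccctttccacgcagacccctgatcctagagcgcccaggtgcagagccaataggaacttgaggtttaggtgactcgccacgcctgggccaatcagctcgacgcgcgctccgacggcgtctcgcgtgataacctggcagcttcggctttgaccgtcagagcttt
The CRE binds factors of the CREB and ATF families. It occurred in the 300-base windows of 549 of 27029 genes (2.03%), and in 1 of the 34 genes of the response that have a window, Ppp1r15a. The CRE was added to the motifs after the windows had been read, so its match in Ppp1r15a tests nothing. The match is a description of the sequence and not a site of binding.

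None of the ATF4 targets passed by edgeR, DESeq2 or limma-voom, although 8 of the 9 tested had positive log2 fold changes, against 6824 of all 13626 genes. By edgeR 4 of the 9 (Asns, Mthfd2, Sesn2 and Trib3) were higher at an unadjusted p under 0.05, against a smaller share, 11.0%, of all genes. The median of the 9 was 0.13, against 0.00 over all genes. Asns, which makes asparagine, had 3.24, 5.29 and 3.38 CPM in KO, against 1.99, 2.81 and 2.82 CPM in WT, with a log2 fold change of 0.65, with SE 0.25 and edgeR adjusted p = 0.150. These levels rest on 68 to 111 counts in KO and 42 to 54 counts in WT. Trib3, a pseudokinase that feeds back on ATF4, was at a similar depth, with 0.47, with SE 0.21 and edgeR adjusted p = 0.218 and 4.24 CPM in each KO library, against 3.70, 2.24 and 3.21 CPM in WT. The groups did not overlap for either gene.

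Among the better measured targets, Sesn2, which restrains mTORC1 signalling, had a log2 fold change of 0.28, with SE 0.12 and edgeR adjusted p = 0.200. Mthfd2, a mitochondrial folate enzyme, had 0.19, with SE 0.07 and edgeR adjusted p = 0.152. In the serine pathway Phgdh had 0.13, Psat1 0.08 and the glycine-forming enzyme Shmt2 -0.01, with a 95% confidence interval of -0.13 to 0.11 for Shmt2. The tRNA synthetases Aars and Sars had 0.02 and 0.02, with intervals of -0.10 to 0.14 for both. Summed over the 11 targets, KO libraries held 625.1, 681.3 and 654.7 CPM and WT libraries 615.4, 635.6 and 624.7 CPM, and the groups overlapped.

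Several of these targets carry the C/EBP-ATF response element (CARE), the sequence that ATF4 binds with a C/EBP partner, and it is shown for the 3 tested genes that hold it. The motif searched was TGATGNAA on both strands. Its fixed letters are in capitals, with 5 bases on each side, read on the strand of the match. The coordinates on GRCm38.p6 are chr6:7693220-7693237 (minus) for Asns, chr2:152344034-152344051 (plus) for Trib3 and chr8:111033725-111033742 (minus) for the upstream match of Aars.
Asns: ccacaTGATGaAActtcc
Trib3: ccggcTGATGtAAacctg
Aars: tcggcTGATGcAAtgctc
It occurred in the windows of 5 of 11 targets (Asns, Trib3, Aars, Chac1 and Vldlr) and of Herpud1, against 1219 of 27029 genes (4.51%). The CARE was searched as a known element of ATF4 targets, so its share among them tests nothing. The 3 tested targets with it had log2 fold changes of 0.65, 0.47 and 0.02 and none passed.

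Of the ER chaperones and folding factors 1 of 14 was called higher and none lower, with a median log2 fold change of 0.06. By edgeR Dnajb9, Hspa5, Calr and Pdia3 of the 14 were higher at an unadjusted p under 0.05, against a smaller share, 11.0%, of all genes. Summed over the 14 genes, KO libraries held 3572, 4068 and 3864 CPM and WT libraries 3304, 3656 and 3731 CPM, and the ranges overlapped. The gene that passed was Dnajb9, which encodes ERdj4, a J-domain cochaperone of BiP known to bind IRE1 and restrain it. It had 58.7, 73.1 and 62.8 CPM in KO, against 43.2, 49.6 and 53.6 CPM in WT. Every KO library was above every WT library, with a log2 fold change of 0.41, with SE 0.10 and edgeR adjusted p = 0.0312, a 1.33-fold rise. The call was lost without WT replicate 1, KO replicate 5 or KO replicate 6, where the adjusted p reached 0.0931. Its log2 fold change was 0.42 under B cell adjustment, where it did not pass.

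Hspa5, which encodes BiP, the main ER chaperone, did not pass. It had 788.8, 923.6 and 834.7 CPM in KO, against 645.4, 762.8 and 786.5 CPM in WT, with a log2 fold change of 0.21, with SE 0.08 and edgeR adjusted p = 0.155. The groups did not overlap, but KO replicate 4 and WT replicate 3 nearly met. Without a filter on low counts Hspa5 passed, at an edgeR adjusted p of 0.00660. The lectin chaperone gene Calr had 0.16, with SE 0.06 and edgeR adjusted p = 0.130 and its partner oxidoreductase Pdia3 0.17, with SE 0.07 and edgeR adjusted p = 0.176. Pdia3 passed without KO replicate 4 at an adjusted p of 0.04997.

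The other 10 folding genes centred on no change. Hsp90b1, which encodes GRP94, had a log2 fold change of -0.01 (95% confidence interval -0.17 to 0.16), and Canx, the membrane-bound lectin chaperone, -0.02 (-0.14 to 0.11). The disulfide isomerases Pdia4 and Pdia6 had -0.05 and 0.07. The BiP cochaperones Dnajb11 and Dnajc3 had 0.06 and 0.00, and Sdf2l1, which joins Dnajb11 in a complex, had 0.03. Manf, a secreted ER stress factor, had 0.06, Creld2, an ER stress-inducible folding factor, 0.14, and Hyou1, an exchange factor of BiP, -0.03. The intervals of these 10 genes lay between -0.23 and 0.32.

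The ER stress response element (ERSE), where NF-Y and ATF6 or XBP1 bind, was present in the windows of 7 of the 12 chaperone genes with a window, and is shown to set the responses of genes that share it side by side. The motif searched was CCAAT, 9 bases of any kind, then CCACG, on both strands. Fixed letters are in capitals with 5 bases on each side, read on the strand of the match. On GRCm38.p6 the Hspa5 element is chr2:34772020-34772048 (plus), the Calr element chr8:84847070-84847098 (plus), the Canx element chr11:50325795-50325823 (minus), the Pdia6 element chr12:17266486-17266514 (plus), the Dnajc3 element chr14:118937822-118937850 (plus) and the Creld2 element chr15:88819515-88819543 (minus). Hsp90b1 holds 2, at chr10:86705633-86705661 (minus) and chr10:86705528-86705556 (plus), and the Syvn1 element is chr19:6046527-6046555 (plus).
Hspa5: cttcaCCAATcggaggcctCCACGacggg
Calr: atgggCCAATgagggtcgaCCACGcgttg
Canx: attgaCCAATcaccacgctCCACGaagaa
Pdia6: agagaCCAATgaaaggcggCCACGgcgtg
Dnajc3: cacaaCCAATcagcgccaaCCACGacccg
Creld2: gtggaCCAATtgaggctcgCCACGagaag
Hsp90b1, first: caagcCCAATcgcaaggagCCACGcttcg
Hsp90b1, second: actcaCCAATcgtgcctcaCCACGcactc
Syvn1: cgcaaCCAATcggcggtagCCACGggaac
With Syvn1, 8 of the 34 genes with a window held the ERSE, against 37 of all 27029 genes (0.137%). None of the 7 chaperone genes with it passed, and their log2 fold changes ran from -0.02 to 0.21, while Syvn1 fell. The windows of Dnajb9 and Atf4 held none of the 5 motifs. Of the remaining motifs, the second ER stress element (ERSE-II, ATTGG, 1 base of any kind, then CCACG) was found in Dnajb11 and Herpud1, against 12 genes in all (0.0444%). The XBP1 motif TGACGTGG was found in none of the 34, against 193 genes in all (0.714%). No match of one motif overlapped that of another. The ERSE and ERSE-II were searched as known elements of this response, so their shares among its genes describe the sequences and test nothing.

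**Figure D4:**
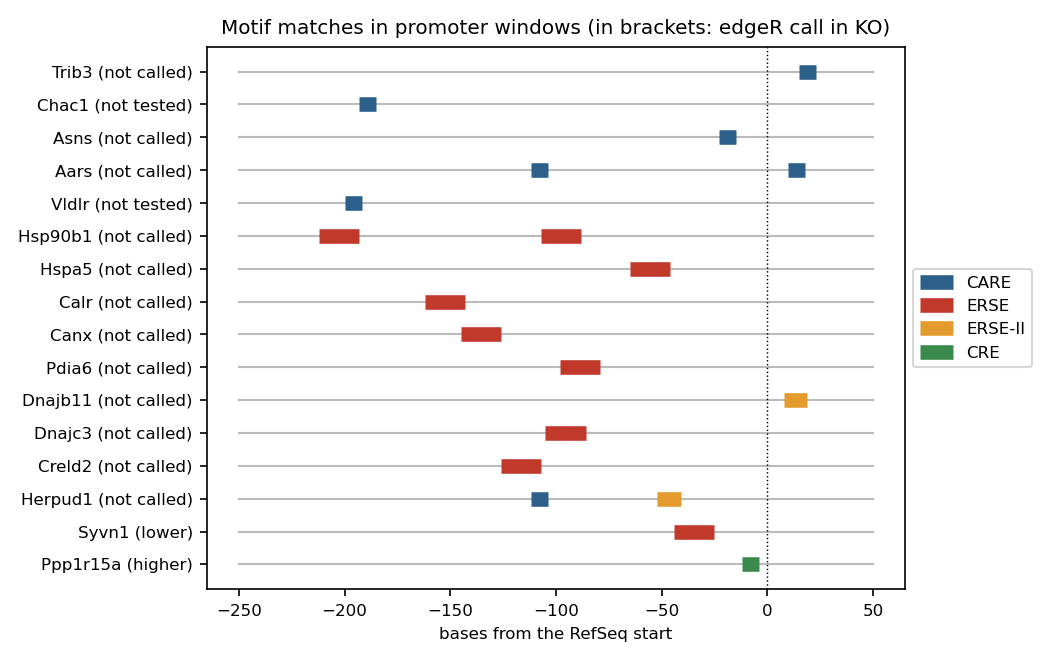
Motif matches in the windows of the 16 genes that hold any, by distance in bases from the RefSeq start (dotted line), with the edgeR call in brackets; red marks ERSE, orange ERSE-II, blue CARE and green CRE. The ERSE and CARE matches sit mostly in genes that were not called, and the called genes shown are Syvn1, with an ERSE, and Ppp1r15a, with a CRE.

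Of the 4 ER degradation genes Syvn1 fell and the other 3 did not pass. Syvn1 encodes HRD1, the ubiquitin ligase that marks misfolded ER proteins for the proteasome. It had 99.1, 103.8 and 102.6 CPM in KO, against 140.0, 107.9 and 130.3 CPM in WT, and WT replicate 2 came close to the KO libraries. The log2 fold change was -0.31, with SE 0.08 and edgeR adjusted p = 0.0490. The order of the WT libraries was that of the B cell markers without Cd72, at 3562, 1685 and 2924 CPM. Adjustment for the B cell score gave a log2 fold change of 0.05, and with WT replicate 2 as the only WT library it was -0.08. The part of B cell RNA in the Syvn1 difference was not tested. Leaving out any library except WT replicate 2 ended the call, where the adjusted p reached 0.179. Mrpl49, which overlaps Syvn1 on the opposite strand, had a log2 fold change of 0.01. Syvn1 lies 23.9 Mb from Il33 on chromosome 19. Nearer to Il33 lie Psat1, at 14 Mb with a log2 fold change of 0.08 and not called, and Vldlr, at 2.71 Mb and not tested.

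Sel1l, the partner that holds HRD1 in its complex, had a log2 fold change of -0.04 (95% confidence interval -0.17 to 0.09). Herpud1, an ER membrane protein that recruits ubiquitin factors to the complex, had 0.11 (-0.01 to 0.24). Edem1, a lectin that selects glycoproteins for disposal, had 0.09 (-0.03 to 0.21). Summed over the 4 genes KO libraries held 693.9, 681.3 and 654.4 CPM and WT libraries 692.9, 659.7 and 674.9 CPM, and the ranges overlapped.

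The size of these changes under other settings is shown for the 5 called genes. Ppp1r15a, Atf4 and Dnajb9 were positive and Atf6 negative under all 20 settings run, including the reported one, but none of the 5 passed under all of them.

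**Figure D5:**
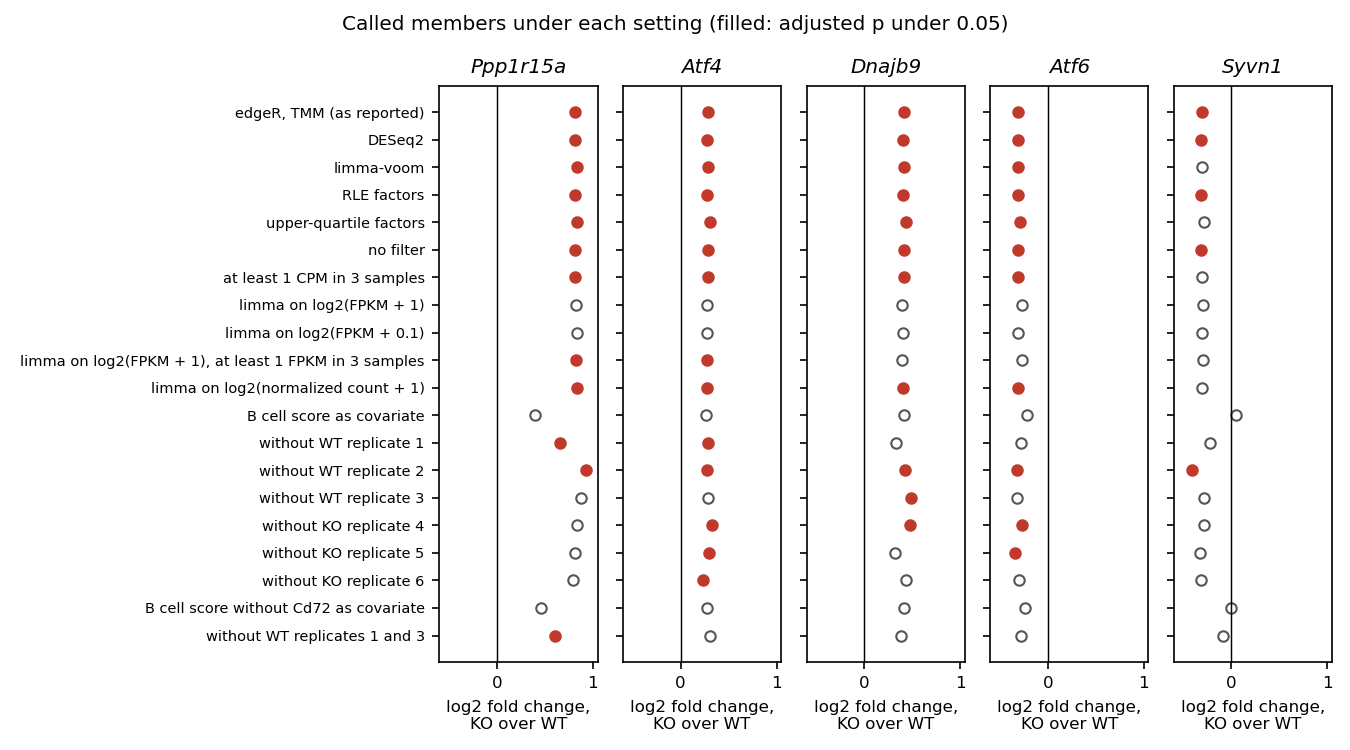
Log2 fold change of KO over WT for the 5 called genes (columns) under each setting (rows), filled red where the adjusted p was under 0.05. Across settings Atf4 runs from 0.24 to 0.33, Dnajb9 from 0.32 to 0.48 and Atf6 from -0.34 to -0.22, while Ppp1r15a drops to 0.40 and Syvn1 reaches 0.05 under B cell adjustment.

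Beyond the 38 genes, 95 further genes of the same pathways were listed and 87 could be tested. Of these 3 rose, 1 fell and 83 did not pass, close to or below the 3.68% and 2.83% called over all genes, with a median log2 fold change of 0.02. Atf3, a stress-induced transcription factor that is also an immediate early gene, had 6.86, 10.3 and 7.85 CPM in KO, against 0.570, 2.13 and 2.16 CPM in WT (log2 fold change 2.38, SE 0.40, edgeR adjusted p = 0.0161). Its groups did not overlap, and the call was lost without KO replicate 6 at an adjusted p of 0.0638. Slc38a2, a sodium-coupled carrier of small neutral amino acids, had 506.7, 553.7 and 479.9 CPM in KO, against 326.7, 358.1 and 361.4 CPM in WT (log2 fold change 0.56, SE 0.06, edgeR adjusted p = 0.000272). Slc3a2, the heavy chain of several amino acid carriers, had 145.4, 160.3 and 151.0 CPM in KO, against 118.4, 126.96 and 124.7 CPM in WT (log2 fold change 0.30, SE 0.06, edgeR adjusted p = 0.00919). Both carriers passed without any 1 library, but under B cell adjustment neither they nor Atf3 passed. The adjusted log2 fold changes were 0.56 for Slc38a2 (edgeR adjusted p = 0.0994), 0.27 for Slc3a2 (edgeR adjusted p = 0.509) and 1.92 for Atf3 (edgeR adjusted p = 0.523). The carriers were the only called genes among 13 tested of 18 further ATF4 targets of amino acid supply. All 18 summed to 1482, 1504 and 1482 CPM in KO and 1255, 1337 and 1302 CPM in WT, without overlap. Without the carriers, left out because they had passed, the other 16 summed to 829.8, 790.2 and 850.9 CPM in KO. In WT these 16 summed to 810.2, 852.1 and 816.0 CPM, and the ranges overlapped.

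The other lists held fewer calls. None of 11 genes of the eIF2 kinases, eIF2 and eIF2B passed, with a median log2 fold change of -0.02, and none of 18 further cytosolic tRNA synthetases, with 0.01. None of 18 further ER degradation and translocation genes passed, with a median of 0.01. Among 15 tested further folding factors Txndc5, a disulfide isomerase abundant in plasma cells, fell, with 81.3, 88.4 and 79.8 CPM in KO, against 110.5, 93.3 and 103.7 CPM in WT (log2 fold change -0.30, SE 0.07, edgeR adjusted p = 0.0226). Like Syvn1 it was lowest among WT libraries in replicate 2, and under B cell adjustment its log2 fold change was -0.02, or -0.07 with Cd72 left out of the score. Its call was lost without any 1 of WT replicates 1 and 3 and KO replicates 4 and 6, where the adjusted p reached 0.103. The part of B cell or plasma cell RNA in the Txndc5 difference was not tested, and the B cell score did not overlap between the groups.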

How the data were processed

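RNA was sequenced from 6 libraries of sorted Tregs, 3 KO and 3 WT. The submitters' processing notes name the build GRCm38 and the tools STAR 2.4.2a, bcl2fastq and DESeq2. The strand, annotation and tool used for counting were not given in the sources used here. Raw counts by Ensembl ID were deposited by the authors, beside normalized counts (signal without a fixed total) and FPKM by symbol. For at least 99.88% of 9733 genes checked, the deposited normalized counts were raw counts over a library-wide factor, within 1e-06.

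The raw counts went into edgeR 4.0.16 (R 4.3.3), filtered with filterByExpr on the group and scaled with TMM factors. The quasi-likelihood fit was robust and its test two-sided, with Benjamini-Hochberg adjustment over all genes tested and a threshold of 0.05. CPM use the TMM factors, and standard errors were derived from the F statistic. The test was checked on simulated data, in 10 draws with 200 changed genes each. Genes were drawn independently, each with the spread typical of its level, and no variation was shared among genes within a library. The rates may therefore differ in the real data. In the draws the test recovered 24.6% of 1.25-fold, 60.3% of 1.5-fold, 83.6% of 2-fold and 98% of 4-fold changes, and 5.74% of its calls were false. A gene that was not called may thus still have changed by a small amount. Alternatives were DESeq2 1.42.0, limma 3.58.1 (voom, and on log2 values of FPKM or normalized counts), other factors and filters, leaving out libraries, and a B cell score as covariate. The score without Cd72 and leaving out both WT replicates 1 and 3 were added after seeing the data. Libraries of a group differed beyond sampling noise in every pair (chi-square per degree of freedom 4.81 to 13.4).

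Symbols and gene positions were looked up by ID in GENCODE M21 (GRCm38), and promoter windows (250 bases before to 50 after the start) from RefSeq on GRCm38.p6, which matched 34 of the 38 genes (not Atf6, Ppp1r15b, Manf and Hyou1). The CRE was added to the motifs after the windows had been read. The genes, lists and motifs were chosen with earlier results of these data known. Named were all 38 genes and up to 3 called genes of each further list with the smallest p. Total counts set the depth. The size of a count alone speaks to counting error only, while the standard errors and intervals also include spread among libraries.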

Additional observations from a re-analysis of the deposited data

How the results depend on the processing

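No paired analysis was possible because KO and WT libraries share no replicate number. The counts of the 38 genes called higher (3) and lower (2) and of the 95 further genes called higher (3) and lower (1) were the same numbers under DESeq2 and RLE factors. Lower calls among the 38 numbered 1 with limma-voom, upper-quartile factors, a 1 CPM filter in 3 samples, and limma on log2(normalized count + 1). Without a filter 5 further genes were called higher. By limma on log2(FPKM + 1) or log2(FPKM + 0.1) the 38 genes gave 0 calls (with FPKM of at least 1 in 3 samples 2 higher and 0 lower), and the further genes 0 and 1 higher and 0 lower. Adjusted for the B cell score all counts were 0, and without Cd72 in it the counts were 0, except 1 further gene called higher. Without WT replicates 1 and 3 the 38 genes gave 1 higher and 0 lower and the further genes 2 higher and 0 lower. Leaving out 1 library gave 1 to 3 higher and 0 to 2 lower for the 38 genes, and 2 to 4 higher and 0 to 2 lower for the further genes. The causes were not tested.

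Of 684 values for the 36 tested genes 29 turned sign, taken at 2 decimals, and 1 of them was of a called gene. Under B cell adjustment these were Syvn1 at 0.0452, Ern1 0.23, Hyou1 0.11, Psat1 -0.0833 and Sel1l 0.10, and without Cd72 in the score Ern1 0.19, Hyou1 0.0818, Psat1 -0.0656 and Sel1l 0.0773. Without WT replicates 1 and 3 they were Ern1 0.0750, Hyou1 0.00718, Psat1 -0.0489 and Sel1l 0.0355, and with upper-quartile factors Canx 0.00658, Ern1 0.00998, Hsp90b1 0.0157 and Shmt2 0.0133. On leaving out 1 library, values ran from -0.0928 to 0.0840 for Ern1, -0.0541 to 0.126 for Eif2ak3, -0.0410 to 0.0171 for Shmt2 and -0.0110 to 0.0536 for Aars. They ran from -0.0659 to 0.0690 for Hsp90b1, -0.0602 to 0.0163 for Canx, -0.0970 to 0.0104 for Hyou1 and -0.101 to 0.111 for Sdf2l1. The B cell score without Cd72 and leaving out WT replicates 1 and 3 were chosen after seeing the data, and dropping both libraries leaves 1 WT library, whose spread is taken from KO.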
